A study of Mus musculus with 2 samples.

Results

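The transcripts described here are those of 39 genes of the cell cycle and of DNA replication, measured in mouse liver by RNA sequencing. They were chosen by gene symbol from a fixed list, with no lower limit on their level, and all 39 were found among the 15526 genes of the deposited table. For the comparison they were split by role into 16 S phase genes, which act at the entry into S phase or in DNA synthesis, 22 mitotic genes, which act from late S phase to cytokinesis, and the G1 cyclin gene Ccnd1. The design holds 2 libraries, each made from liver RNA of 3 female mice of 22 weeks that was mixed before sequencing. All mice were NOG-TKm30, that is, severely immunodeficient NOG mice with a transgene for viral thymidine kinase (HSVtk, mutant clone 30, from herpes simplex virus), driven by the enhancer and promoter of the mouse transthyretin gene. Transthyretin is made mainly by hepatocytes in the liver. The control pool received 0% and the AAOT pool 0.3% of acetoaceto-o-toluidide (AAOT) for 4 weeks. AAOT is built on o-toluidine, an aromatic amine. The labels name C57BL as well as NOG as the background. With 1 pooled library per group there was no spread between mice or libraries, so no test of the treatment was possible and none was made.

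A cell that leaves quiescence is driven by cyclin D through G1. Release of E2F factors from the retinoblastoma proteins then turns on the genes of origin licensing, of the replication fork and of nucleotide supply. A later set of genes, bound by the MuvB complex with B-Myb and FoxM1, is turned on for G2 and mitosis. Adult hepatocytes are mostly quiescent and often polyploid, and they enter the cycle after loss of liver mass or on exposure to some mitogens. The mouse thymidine kinase gene Tk1, a member, is distinct from the viral kinase of the transgene, whose transcript was not analysed here.

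Levels are given in CPM, which are reads scaled to library size by the authors, and in reads, which could be recovered as whole numbers from the CPM. The libraries held 18801241 control reads and 16528533 AAOT reads, so that 1 read is worth 0.0539 CPM in the first and 0.0598 CPM in the second. The tissue label fitted its markers, with albumin at 57688 CPM and 50830 CPM, and all 10 hepatocyte markers were above 10 CPM. Where values come as a pair, the control pool is given first. A ratio is that of CPM in the AAOT pool over the control pool, and the range behind it is the exact 95% interval of the ratio of the read counts. These intervals cover counting error only, and reads without molecular identifiers are not independent molecules. Where a count of genes past 2-fold is given, 1 CPM was added to both values before the log2 ratio was taken, which shrinks the ratio of genes with few reads.

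Sequence upstream of the members is shown first, because the split into S phase and mitotic genes was made by role and not by promoter. RefSeq windows of 300 bases (250 before and 50 after a transcription start, GRCm38.p6) were at hand for 31 of the 39 members, in 33 windows. They were searched on both strands for the letters of the E2F site (TTTGGCGC, TTTCGCGC, TTTCCCGC or TTTGCCGC), for those of the cell cycle homology region, or CHR, through which MuvB binds (TTTGAA or TTCGAA), and for the CCAAT box (CCAAT). Of these, TTTGGCGC and TTTCGCGC can overlap on opposite strands, as they do in Mcm6 and Mcm5. The 7 stretches below are the last 150 bases before the outermost start that RefSeq or GENCODE gives. Those of Mcm6 and Mcm5 carry E2F letters, those of Cdk1, Mki67 and Top2a carry CHR letters and CCAAT boxes, Cdk1 with E2F letters as well, and those of Tyms and Tk1, the S phase genes with the clearest difference between the pools, carry none of the 3. They are examples, and other stretches cut in the same way differ. That of Mcm3 has CCAAT boxes but no E2F letters, and those of Ccnb2 and Ube2c have CCAAT boxes but no CHR letters. The full windows of Mcm3, Ccnb2 and Ube2c do carry those letters. Capitals mark the matches, and a match on the opposite strand reads as its reverse complement, such as ATTGG for CCAAT.
Mcm6: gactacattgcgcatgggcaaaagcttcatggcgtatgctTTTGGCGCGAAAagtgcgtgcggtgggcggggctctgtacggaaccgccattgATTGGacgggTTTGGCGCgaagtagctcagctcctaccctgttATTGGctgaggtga
Mcm5: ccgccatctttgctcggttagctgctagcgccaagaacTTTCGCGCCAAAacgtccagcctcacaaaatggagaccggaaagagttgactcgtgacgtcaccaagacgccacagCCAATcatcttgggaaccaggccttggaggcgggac
Cdk1: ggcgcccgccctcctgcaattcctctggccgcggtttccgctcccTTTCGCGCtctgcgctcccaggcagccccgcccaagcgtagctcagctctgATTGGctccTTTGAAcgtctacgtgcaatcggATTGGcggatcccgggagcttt
Mki67: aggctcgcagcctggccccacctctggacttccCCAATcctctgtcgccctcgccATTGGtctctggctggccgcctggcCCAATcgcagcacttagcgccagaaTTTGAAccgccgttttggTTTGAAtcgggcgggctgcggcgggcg
Top2a: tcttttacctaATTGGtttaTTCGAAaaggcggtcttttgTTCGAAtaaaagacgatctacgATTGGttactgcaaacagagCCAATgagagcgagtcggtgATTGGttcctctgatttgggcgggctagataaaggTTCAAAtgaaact
Tyms: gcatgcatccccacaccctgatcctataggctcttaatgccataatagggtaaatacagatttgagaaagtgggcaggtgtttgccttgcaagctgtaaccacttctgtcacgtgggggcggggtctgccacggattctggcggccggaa
Tk1: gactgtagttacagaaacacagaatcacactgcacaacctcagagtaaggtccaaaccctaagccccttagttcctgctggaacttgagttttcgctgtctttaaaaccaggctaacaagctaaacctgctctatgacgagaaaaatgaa

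The stretch of Mcm6 lies at chr1:128359706-128359855 (minus strand), that of Mcm5 at chr8:75109318-75109467 (plus strand) and that of Cdk1 at chr10:69352939-69353088 (minus strand). The stretch of Mki67 lies at chr7:135716451-135716600 (minus strand) and that of Top2a at chr11:99024200-99024349 (minus strand). The stretch of Tyms lies at chr5:30073646-30073795 (minus strand) and that of Tk1 at chr11:117826093-117826242 (minus strand). In the full windows E2F letters were present in 5 of 15 S phase windows (33.3%) and 1 of 18 mitotic windows (5.56%), that of Cdk1, against 2.26% of all 32851 windows. CHR letters were present in 14 of 18 mitotic windows (77.8%) and 3 of 15 S phase windows, against 19.2% of all windows. A CCAAT box was present in 16 of 18 mitotic windows (88.9%) and 10 of 15 S phase windows (66.7%), against 37.4% of all windows, and 2 or more boxes in 55.6%, 33.3% and 11.7%. The median GC content was 57.7% in the S phase windows, 58.3% in the mitotic windows and 52.7% in all windows, and the shares were not matched for it. A match is a run of letters and not a measured binding site, and a window without one says only that these letters are not in it. For 6 of the 33 windows, those of Aurka, Cdc6, E2f1, E2f8 and Mcm7, the start lies more than 200 bases inside the gene as RefSeq draws it. The difference between the pools is given for members with and without the letters as a description. Of 16 members with CHR letters 8 had a log2 ratio above 0 (median -0.01), and of 15 without them 12 did (median 0.16). Of 6 members with E2F letters 3 had a log2 ratio above 0 (median -0.02), and of 25 without them 17 did (median 0.08). Of 24 members with a CCAAT box 14 did (median 0.06), and of 7 without one, Tyms and Tk1 among them, 6 did (median 0.44). Cdc6 and E2f1, with log2 ratios of 0.49 and 0.65, count as without CHR letters and without a CCAAT box. Their windows start 442 and 466 bases inside the gene, so the sequence at the outermost start was not searched. Aurka and E2f8, with log2 ratios of -0.63 and -0.03, count as with both on such windows. These splits depend in part on those windows.

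Most members were scarce in both livers. Of the 39, 7 had a mean of at least 10 CPM over the pools, namely Tyms, Ccnd1, Tk1, Pcna, E2f8, Mcm7 and Rrm1, and 16 were under 1 CPM. None of the 22 mitotic genes reached 10 CPM and 14 of them were under 1 CPM, with a median of 14 control reads and 13 AAOT reads. For levels between genes, CPM were divided by the length of the gene's exons in GENCODE, joined over all its annotated transcripts. That length can exceed the one of a single transcript, so the order depends on the annotation as well as on the reads. On that scale the 10 highest members were Tyms (a mean of 15.3 CPM per kb), Ccnd1 (13.6), Pcna (8.20), Tk1 (3.94), Mcm7 (2.77), E2f8 (2.60), Mcm4 (1.52), Mcm6 (1.29), Mcm3 (1.23) and Rrm1 (0.999). The highest mitotic gene, Aurka, stood at rank 11 with 0.649 CPM per kb, and the proliferation marker Mki67 had 0.358 CPM per kb.

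**Figure D1:**
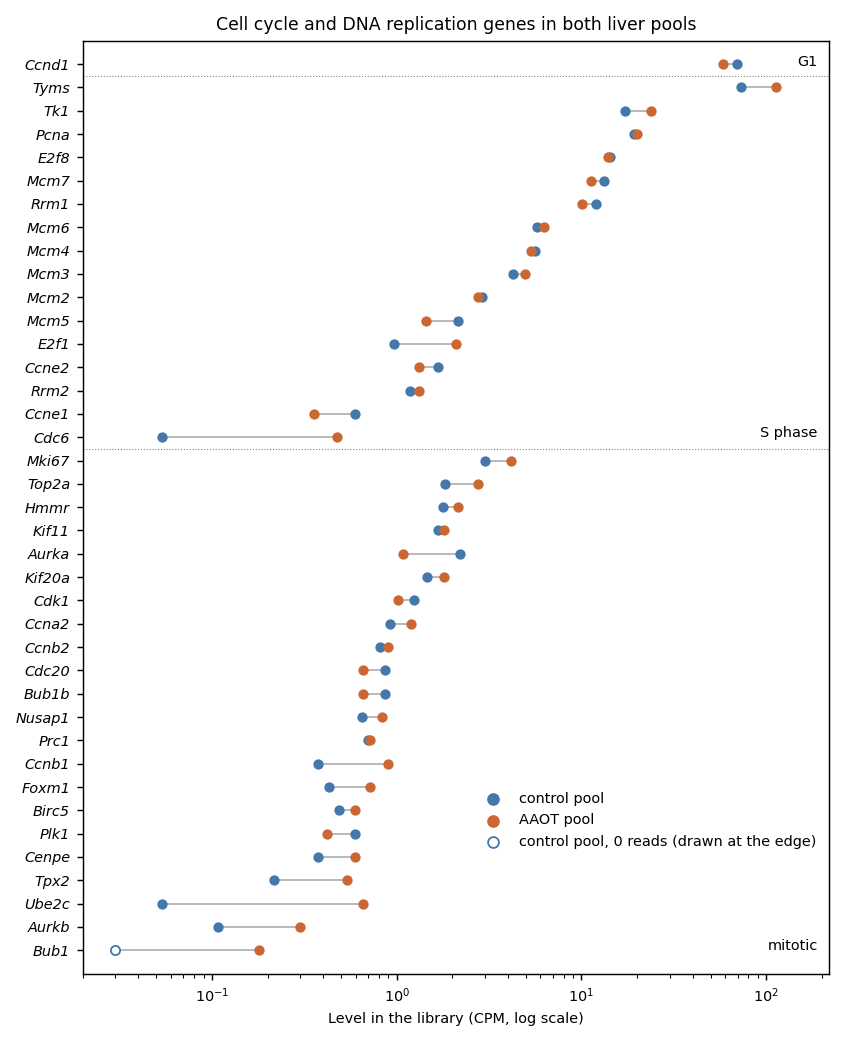
Level of each of the 39 members in the control pool (blue) and the AAOT pool (orange), in CPM on a log scale, grouped by role and ordered by mean level within each group. Ccnd1, Tyms, Tk1, Pcna, E2f8, Mcm7 and Rrm1 lie above 10 CPM, every mitotic gene lies under 5 CPM, and Bub1, with 0 reads in the control pool, is drawn as an open point at the left edge.

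No member differed by 2-fold or more after the added 1 CPM. The count was 0 of 39 higher, where 0.605% of all listed genes were, and 0 of 39 lower, where 0.386% were, and a count of 0 among 39 is near both shares. A gene under 1 CPM in both pools cannot reach 2-fold by this rule, so its outcome was fixed in advance. The 2-fold shares were not matched for level. By the plain ratio of CPM, 6 of 38 members were at least 2-fold higher (Cdc6, E2f1, Ccnb1, Aurkb, Ube2c and Tpx2) and 1 was lower (Aurka). The share of all listed genes by the plain ratio was not counted. The counting interval lay above 1 for 5 of 39 members (12.8%), a share near the 12.7% of all listed genes, and below 1 for 2 of 39 (5.13%), against 13.1%. The 5 were Tyms, Tk1, E2f1, Cdc6 and Ube2c, and the 2 were Aurka and Ccnd1. Since such intervals depend on the number of reads, the shares were also taken by level. Among the 7 members of at least 10 CPM, 2 lay above 1, where 18.7% of genes of that level did, and 1 below 1, where 20.8% did. Among the other 32 members, 3 lay above 1, where 6.62% of genes under 10 CPM did, and 1 below 1, where 5.31% did. The median log2 ratio of the 39 members was 0.11, beside -0.0016 for all listed genes, and 25 of 39 were above 0 (64.1%), where 49.7% of all listed genes were.

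**Figure D2:**
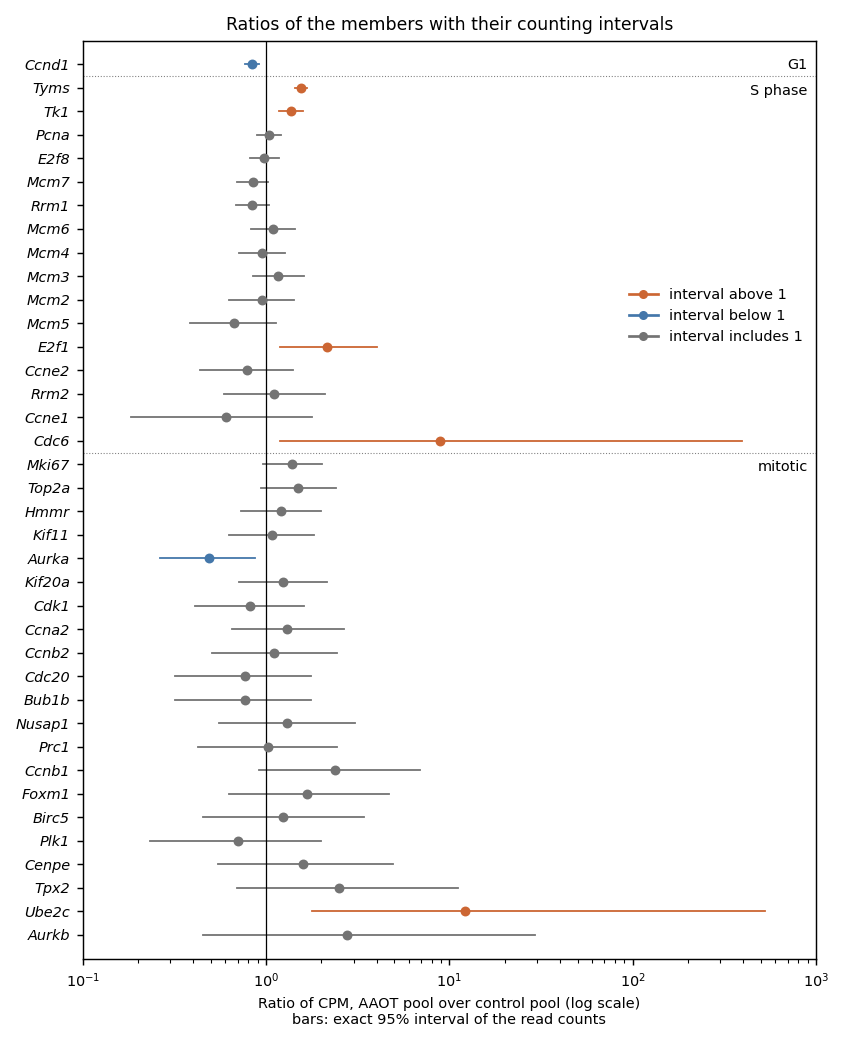
Ratio of CPM in the AAOT pool over the control pool for 38 members, on a log scale, with the exact 95% interval of the read counts as a bar. Bub1 has no ratio because it had 0 reads in the control pool. The intervals of Tyms, Tk1, E2f1, Cdc6 and Ube2c lie above 1, those of Aurka and Ccnd1 lie below 1, and those of the other 31 include 1.

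**Figure D3:**
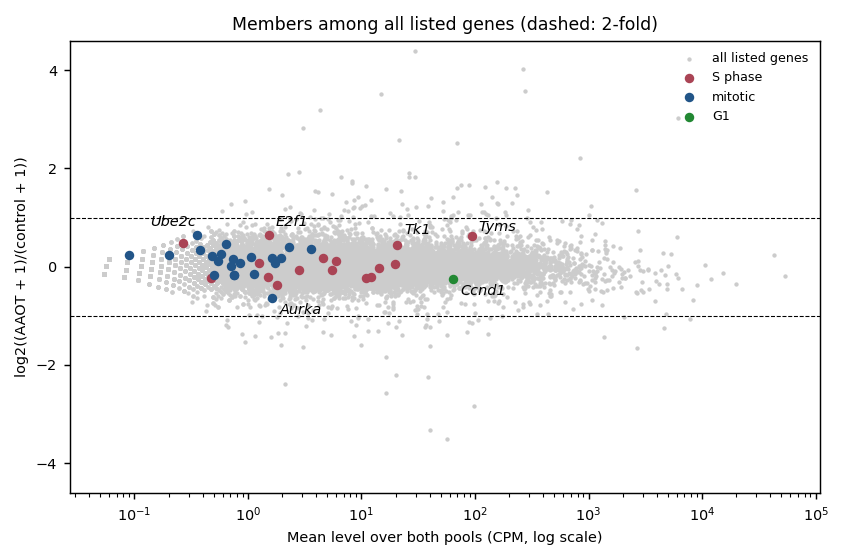
Mean level over both pools (CPM, log scale) against the log2 ratio after adding 1 CPM, for all 15526 listed genes (grey) and the members by group (coloured). All 39 members lie between the dashed lines at 2-fold, from -0.63 for Aurka to 0.65 for Ube2c.

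The 16 S phase genes together were higher in the AAOT pool, and the excess lay with Tyms and Tk1. They had 3241 control reads and 3662 AAOT reads in sum, or 175 CPM and 219 CPM, a ratio of 1.25 (1.20 to 1.31). Without Tyms the sum was 101 CPM and 105 CPM, a ratio of 1.04 (0.975 to 1.11). Without Tyms and Tk1, left out after their values were seen, the other 14 genes summed to 84.0 CPM and 81.6 CPM, a ratio of 0.972 (0.904 to 1.05). Tyms alone held 42.0% of the control reads of this group and 51.9% of its AAOT reads. By gene, 8 of the 16 had a log2 ratio above 0 and 8 below it, with a median of 0.01.

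Of the 4 members of nucleotide synthesis, Tyms and Tk1 were higher in the AAOT pool and the intervals of Rrm1 and Rrm2 included 1. Tyms (chromosome 5, 30058202 to 30073617, GRCm38, minus strand), the thymidylate synthase that makes dTMP from dUMP, had 1361 control reads and 1899 AAOT reads, or 73.3 CPM and 113 CPM. The ratio was 1.55 (1.44 to 1.66). Tk1 (chromosome 11, 117815526 to 117826092, minus strand), the cytosolic thymidine kinase that salvages thymidine, had 321 reads and 397 reads, or 17.3 CPM and 23.7 CPM, a ratio of 1.37 (1.18 to 1.59). Both enzymes deliver dTMP, by synthesis and by salvage. The subunits of ribonucleotide reductase, which makes the deoxynucleotides, are encoded by the other members of this role. Its large subunit Rrm1 had 222 reads and 168 reads, a ratio of 0.840 (0.683 to 1.03), and its S phase subunit Rrm2 had 22 reads in each pool, a ratio of 1.11 (0.586 to 2.10). Of the 50-base stretches of the longest Tyms transcript 92.0% occur in no other gene's transcripts, and 99.6% of those of Tk1.

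The MCM helicase and its loader showed no difference beyond counting error except at the lowest counts. The 6 subunits Mcm2 to Mcm7 form the ring that is loaded on origins and unwinds DNA. Their reads summed to 630 and 535, or 33.9 CPM and 32.0 CPM, a ratio of 0.942 (0.838 to 1.06). For each of the 6 the interval included 1. Mcm5 had the lowest ratio of the 6, with 40 reads and 24 reads, a ratio of 0.666 (0.384 to 1.13), and Mcm3 the highest, with 79 reads and 83 reads, a ratio of 1.17 (0.846 to 1.61). Mcm7 had 246 reads and 188 reads, a ratio of 0.848 (0.698 to 1.03). The subunits act in equal numbers in the ring, yet their transcript levels ranged from 0.418 to 2.99 CPM per kb in the control liver and from 0.359 to 2.54 with AAOT. This range depends on the annotated exon lengths as well as on the reads. Part of the Mcm7 reads may belong to a copy, since 74.0% of its stretches are unique and the rest are shared mostly with Gm5487. Cdc6, which loads the ring, had 1 control read and 8 AAOT reads, a ratio of 8.88 with an interval from 1.19 to 394. The sliding clamp Pcna, which holds DNA polymerase on its template, had 358 reads and 336 reads, or 19.3 CPM and 20.1 CPM, a ratio of 1.04 (0.895 to 1.21). Only 68.2% of the stretches of Pcna are unique, the rest being shared mostly with Pcna-ps2.

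The regulators at the G1 to S boundary went in different directions. Ccnd1 (chromosome 7, 144929931 to 144939925, minus strand), which encodes cyclin D1, the cyclin of G1, had 1298 reads and 979 reads, or 69.9 CPM and 58.5 CPM. It was 1.19-fold lower in the AAOT pool (1.10 to 1.30). The transcription factor gene E2f1 had 18 reads and 35 reads, a ratio of 2.16 (1.19 to 4.05), at 0.969 CPM and 2.09 CPM. E2f8, an atypical E2F that represses E2F targets and takes part in hepatocyte polyploidization, had 266 reads and 234 reads, a ratio of 0.976 (0.815 to 1.17). The cyclin E genes, whose products drive the start of S phase, were scarce. Ccne1 had 11 reads and 6 reads, and Ccne2 31 reads and 22 reads, with ratios of 0.605 (0.184 to 1.79) and 0.788 (0.434 to 1.40).

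The 22 mitotic genes were slightly higher in sum in the AAOT pool. Their reads summed to 383 and 412, or 20.6 CPM and 24.6 CPM, a ratio of 1.19 (1.04 to 1.38). Of the 22, 17 had a log2 ratio above 0 (77.3%), where 52.9% of genes under 10 CPM did, and the median was 0.18. The interval lay above 1 for 1 gene, Ube2c, below 1 for 1 gene, Aurka, and included 1 for 20. Without Mki67, which held 14.6% and 17.0% of these reads, the sum had a ratio of 1.16 (0.994 to 1.35), so that equality then lay inside the interval. In bulk liver, more cells in division and more of these transcripts per dividing cell cannot be told apart.

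**Figure D4:**
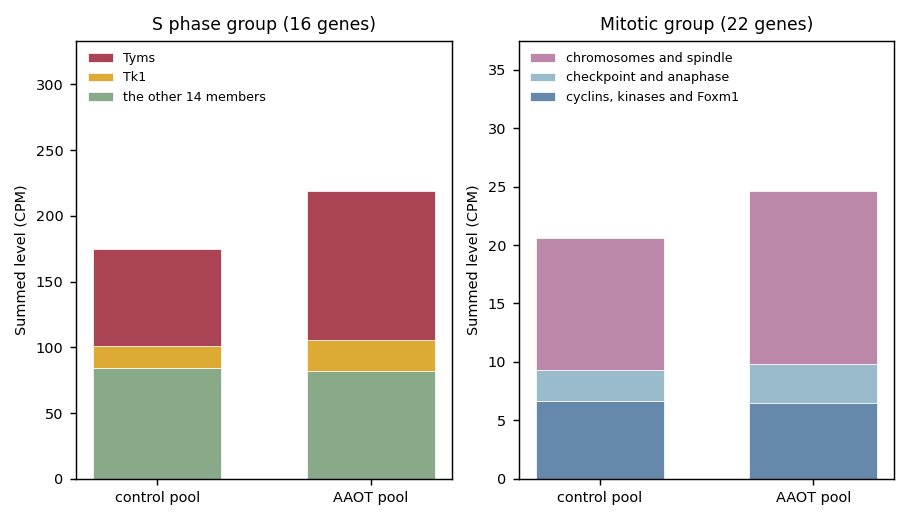
Summed level in CPM of the S phase genes (left) and of the mitotic genes (right) in each pool, stacked by part, with separate axes that start at 0. The S phase sum goes from 175 to 219 CPM while the 14 genes other than Tyms and Tk1 go from 84.0 to 81.6 CPM, and the mitotic sum goes from 20.6 to 24.6 CPM.

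The mitotic genes were also summed by role, and no difference between roles was tested. The 8 genes of chromosomes and spindle summed to 210 reads and 247 reads, a ratio of 1.31 (1.08 to 1.58). All 8 had a log2 ratio above 0, from 0.01 for Prc1 to 0.41 for Top2a, and the interval of each included 1. Mki67, the marker of cycling cells that coats mitotic chromosomes, had 56 reads and 70 reads, a ratio of 1.39 (0.962 to 2.01). Top2a, the topoisomerase that untangles replicated DNA, had 34 reads and 46 reads, a ratio of 1.501 (0.943 to 2.41). The spindle genes Hmmr, Kif11 and Kif20a had 33, 31 and 27 control reads and 36, 30 and 30 AAOT reads. The spindle factors Nusap1, Prc1 and Tpx2 had 12, 13 and 4 control reads and 14, 12 and 9 AAOT reads.

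The cyclins and kinases of mitotic entry, with the factor Foxm1, summed to 124 reads and 109 reads, a ratio of 0.975 (0.747 to 1.27), whose interval included 1. Without Aurka, left out after its values were seen, the other 7 had 83 reads and 91 reads, a ratio of 1.22 (0.894 to 1.66). Aurka (chromosome 2, 172356190 to 172370535, minus strand), the Aurora kinase of the centrosome and spindle poles, had 41 reads and 18 reads, or 2.21 CPM and 1.08 CPM. It was 2.05-fold lower in the AAOT pool (1.15 to 3.80), and leaving it out took the ratio of the mitotic sum from 1.19 to 1.28 (1.10 to 1.48). Cdk1, the kinase that triggers mitosis, had 23 reads and 17 reads, a ratio of 0.820 (0.411 to 1.60). Its cyclins Ccna2, Ccnb1 and Ccnb2 had 17, 7 and 15 control reads and 20, 15 and 15 AAOT reads. Only 57.9% of the stretches of Ccnb1 are unique, the rest being shared mostly with Ccnb1-ps. The kinase genes Plk1 and Aurkb had 11 and 2 control reads and 7 and 5 AAOT reads, and Foxm1, the transcription factor of the mitotic genes, 8 reads and 12 reads.

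The genes of the spindle checkpoint and of anaphase were the scarcest, with 49 reads and 56 reads in 6 genes, a ratio of 1.27 (0.849 to 1.90). Ube2c, which encodes the ubiquitin-conjugating enzyme of the anaphase-promoting complex, had 1 control read and 11 AAOT reads, a ratio of 12.2 with an interval from 1.77 to 525. Cdc20, which activates that complex, had 16 reads and 11 reads, as did the checkpoint gene Bub1b. The inner centromere gene Birc5 (survivin) had 9 reads and 10 reads, and the kinetochore motor Cenpe 7 reads and 10 reads. The checkpoint kinase Bub1 had 0 reads and 3 reads, and 3 reads in the control pool, or 0.162 CPM, is the level that a count of 0 allows.

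The libraries were directional per the labels' protocols, but no source at hand says whether the counting used strand. Reads counted for some members may therefore include those of a neighbour. Exons of 12 members overlap those of a gene on the opposite strand. The overlap is 1271 bases for Kif20a (with Cdc23), 1100 for Ccnd1 (LTO1), 911 for Prc1 (Rccd1), 610 for E2f8 (Gm2788) and 609 for Ccne2 (Ints8). It is 592 bases for Ube2c (Tnnc2), 510 for Ccna2 (Exosc9), 385 for Mcm7 (Cops6 and Ap4m1) and 172 for Nusap1 (Oip5). The shortest are 156 bases for Plk1 (Gm44985), 83 for Tk1 (Afmid) and 53 for Cdc20 (Elovl1). Exons of 3 members, Mcm7, Top2a and Foxm1, overlap those of another gene on their own strand. The values of these members are uncertain to that extent.

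The S phase and mitotic groups can be set against each other within each library, which needs no scaling. Per 100 mitotic reads the control pool had 846 S phase reads and the AAOT pool 889. The ratio of these shares was 1.05 (0.904 to 1.22), and its interval included 1. Without the most abundant member on each side, Tyms and Mki67, it was 0.897 (0.758 to 1.06), which included 1 as well. Leaving Tyms and Tk1 out of the S phase side alone gave 0.815 (0.694 to 0.956). Those genes were left out for their high ratios after the data were seen, so the lower value follows from the choice and is a description only.

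The other genes of the cycle were taken from 9 lists, of which 216 of 218 genes were analysed here. Of these 216, 0 were at least 2-fold higher after the added 1 CPM, where 0.605% of all listed genes were, and 0 at least 2-fold lower, where 0.386% were. The added 1 CPM shrinks the ratios of the 66 with a mean under 1 CPM, so these counts of 0 are not read as a result. A log2 ratio above 0 was found for 108 of the 216, where 49.7% of all listed genes had one. The other 108 were below 0, and the median was 0.0013. The counting interval lay above 1 for 21 of the 216 (9.72%), where 12.7% of all listed genes did, and below 1 for 20 (9.26%), where 13.1% did. These shares were not matched for level. Of the 216, 67 had a mean of at least 10 CPM, where 7761 of all 15526 listed genes did. Such intervals depend on the number of reads, so the lower shares are not read as a result about these genes. The counts given below for each list are a description beside the same shares of all listed genes, and are not read as results about the lists. The genes named are the 3 farthest from no difference in each list among those with a mean of at least 1 CPM. In origin licensing and firing (22 genes, median -0.02), the intervals of 0 genes lay above 1 and of 3 below 1. There Mcm10, which helps to activate the MCM helicase, had 497 reads and 323 reads and was 1.39-fold lower (1.20 to 1.60), while Orc6, a subunit of the origin recognition complex, and Wdhd1 had intervals that included 1. At the replication fork (32 genes, median 0.05), 2 lay above 1 and 2 below 1. Pole3, an accessory subunit of DNA polymerase epsilon, was 1.90-fold lower (1.18 to 3.13), and Chaf1b, of the histone chaperone CAF-1, had a ratio of 1.94 (1.015 to 3.84). Its partner Chaf1a had a ratio of 1.76 with an interval from 0.926 to 3.45.

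Nucleotide supply beyond the members (25 genes, median -0.01) had 4 genes above 1 and 2 below 1, where 12.7% and 13.1% of all listed genes lay. Umps, which makes UMP, had 592 reads and 701 reads, a ratio of 1.31 (1.18 to 1.47). Ctps, the CTP synthase, was 1.41-fold lower (1.03 to 1.95), and Impdh1 had an interval that included 1. The remaining cyclins and kinases of G1 (10 genes, median 0.03) had 1 gene above 1, Ccnd3 at 1.16 (1.04 to 1.29), and 1 below 1, Cdk2 at 1.23-fold lower (1.03 to 1.46). Myc had 61 reads and 67 reads, with an interval that included 1.

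Among the inhibitors of the cycle (20 genes, median -0.03) 3 lay above 1 and 2 below 1, where 12.7% and 13.1% of all listed genes did. Cdkn1a, which encodes the p21 inhibitor of cyclin-dependent kinases, had 416 reads and 204 reads and was 1.84-fold lower (1.55 to 2.18). Wee1, the kinase that holds Cdk1 inactive, had a ratio of 1.40 (1.07 to 1.84) and the antiproliferative gene Btg2 a ratio of 1.20 (1.03 to 1.40). Among the E2F and DREAM regulators (15 genes, median -0.07) 2 lay above 1 and 2 below 1. The activator E2f3 had a ratio of 1.24 (1.02 to 1.51) and the repressor E2f6 also 1.24 (1.05 to 1.46), while E2f4, the E2F of quiescent cells, was 1.28-fold lower (1.07 to 1.52).

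**Figure D5:**
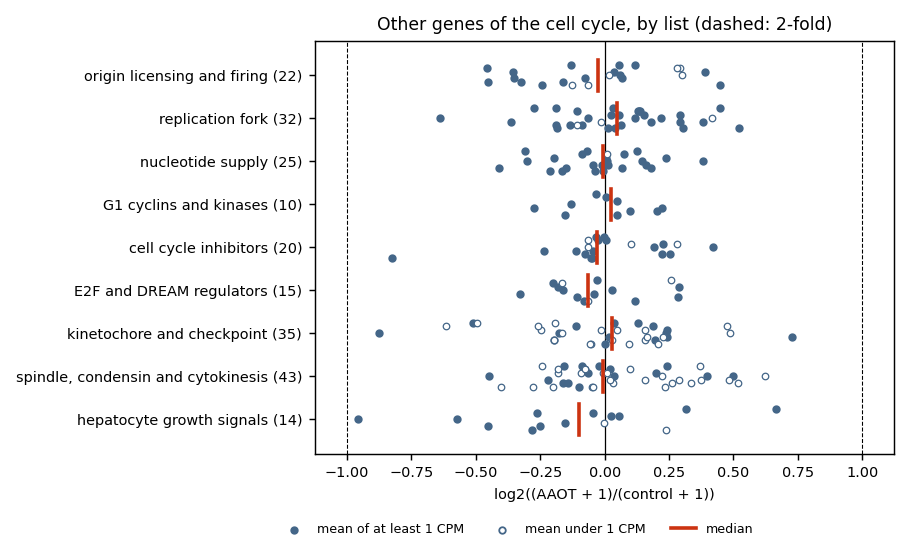
The log2 ratio after adding 1 CPM of each gene in the 9 further lists, with the number of genes in brackets. Filled points have a mean of at least 1 CPM, open points less, and the red bar is the median of the list. All 216 genes lie between the dashed lines at 2-fold, and the medians lie between -0.10 and 0.05.

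The kinetochore and checkpoint genes (35 genes, median 0.03) had 3 above 1 and 3 below 1, and the genes of spindle, condensin and cytokinesis (43 genes, median -0.01) had 4 above 1 and 1 below 1. Of all listed genes, 12.7% lay above 1 and 13.1% below 1. In the second list Ect2, which starts the cytokinetic furrow, had 41 reads and 59 reads, a ratio of 1.60 (1.05 to 2.44). The microtubule polymerase gene Ckap5 had a ratio of 1.33 (1.16 to 1.53), and Trip13 had 28 reads and 14 reads with an interval that included 1. The growth signals of hepatocytes (14 genes, median -0.10) had 2 above 1 and 4 below 1. The receptor gene Egfr, which carries the EGF signal for hepatocyte division, had 8622 reads and 3994 reads and was 1.95-fold lower (1.87 to 2.02). The Wnt target Axin2 was 1.52-fold lower (1.30 to 1.78), and the EGF receptor ligand Btc had 26 reads and 47 reads, a ratio of 2.01 (1.22 to 3.37).

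Cell types other than hepatocytes can hold dividing cells, and markers of all were set beside the members. Of all listed genes, 49.7% had a log2 ratio above 0. The 10 hepatocyte markers summed to 102559 CPM and 89926 CPM, 1.14-fold lower in the AAOT pool (1.138 to 1.143), with 7 of 10 below 0. The 12 Kupffer cell and macrophage markers summed to 528 CPM and 568 CPM, a ratio of 1.08 (1.05 to 1.11), with 7 of 12 above 0. The 12 sinusoidal endothelial markers summed to 679 CPM and 696 CPM, a ratio of 1.02 (0.999 to 1.05), with 5 of 12 above 0. The 11 erythroid markers summed to 353 CPM and 393 CPM, a ratio of 1.11 (1.07 to 1.15), with 8 of 11 above 0. Among the last, Hbb-bs had 0 control reads and 102 AAOT reads, and it is named after its values were seen. The beta globin genes are near-identical copies, so the split of reads between them is uncertain. Hbb-bt, the other beta globin marker, had 218 control reads and 225 AAOT reads, and the source of the Hbb-bs reads was not tested. The 11 stellate cell and fibroblast markers summed to 701 CPM and 613 CPM, a ratio of 0.874 (0.852 to 0.897), with 11 of 11 below 0. The 8 cholangiocyte markers summed to 64.5 CPM and 48.6 CPM, a ratio of 0.754 (0.689 to 0.825), with 8 of 8 below 0. The 4 lymphocyte and NK cell markers analysed here held 20 reads in each pool, and the 7 neutrophil and myeloid precursor markers analysed here held 17 reads and 20 reads. The part of these cell types in the mitotic and S phase sums was not tested.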

How the data were processed

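Liver RNA of 3 mice per group was mixed, purified on columns, depleted of ribosomal RNA and made into directional libraries from 200 ng, per the labels' protocols. A table of CPM was deposited by the authors, with 1 column per library, whose names match the codes in the titles. Named tools are Trimmomatic 0.38, Bowtie2, RSEM and edgeR, with mm10 as the build, per the submitters' processing notes, which give no roles. No source at hand names the annotation. The deposited CPM summed to 1012463 and 987690, so they include scaling factors of 0.988 and 1.01. All values (100%) were whole multiples of 1 step per column within a relative tolerance of 1e-06, which gave the reads. No listed gene had fewer than 2 reads in all. Rn45s took 3.89% and 4.70% of reads.

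With 1 library per group a count model on the recovered reads has no residual degrees of freedom and was not run. Intervals of ratios are Clopper-Pearson intervals conditional on the summed reads. That of the ratio of ratios is the conditional interval of the odds ratio. No fold is given where both pools had at most 3 reads. Genes past 2-fold were counted on log2((AAOT + 1)/(control + 1)). The members, the groups, the 9 lists, the 8 marker lists and the rule for naming genes were chosen with earlier results of these data known. The rule names all members, and per further list the 3 genes farthest from no difference with a mean of at least 1 CPM. Spc24, Spc25 and Mis12 are given in the closing section. Of the list symbols, 4 were found through RefSeq synonyms and 2 were not analysed here. Positions, exon lengths and unique 50-base stretches are from GENCODE M21 (GRCm38, which mm10 refers to), and promoters from RefSeq. The intervals of single ratios and the 2-fold counts were tested on simulated reads that held counting error only. The other steps were not tested in this way. Intervals used scipy 1.17.1 and the tables pandas 2.3.3 with numpy 2.4.6, under Python 3.11.15, and figures matplotlib 3.10.9.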

Additional observations from a re-analysis of the deposited data

How the results depend on the processing

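Depth limits the mitotic genes most, since 15 of the 22 had at most 20 reads in each pool, and no alternative gives the spread between mice. No paired analysis was possible because each group has 1 library. Under 5 other scalings the S phase ratio lay between 1.26 and 1.30 and the mitotic ratio, 1.19, between 1.20 and 1.23. With Ccna2, Top2a, Mki67 and Foxm1 counted as S phase genes the mitotic ratio was 1.09 and the S phase ratio over it 1.15. On CPM per kb, added after the data were seen, the mitotic ratio was 1.095 and the S phase ratio 1.21. Without its most abundant member the S phase ratio of 1.25 was 1.04. The S phase ratio over the mitotic ratio, 1.05, was 0.897 without the most abundant member of each group, 0.887 from the members' median log2 ratios and, in an alternative added after the data were seen, 0.815 without Tyms and Tk1. With an added constant of 0.1 CPM in place of 1 CPM, 6 members were at least 2-fold higher (Cdc6, E2f1, Ccnb1, Bub1, Ube2c and Tpx2) in place of 0. That constant shrinks genes with few reads less, and the share of all listed genes past 2-fold with it was not counted. At 1.5-fold 3 were higher (Tyms, E2f1 and Ube2c) and 1 was lower (Aurka), beside 367 and 248 of all 15526 listed genes. The median log2 ratio of the members, 0.11, was -0.03 among the 7 with a mean of at least 10 CPM. Under other constants and scalings the only member whose log2 ratio changed sign was E2f8, and the counting intervals of members with few reads are too wide to speak to their stability.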

Other observations

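The 3 kinetochore genes of at least 1 CPM that lay farthest from no difference belong to the outer kinetochore, where the NDC80 complex (Ndc80, Nuf2, Spc24 and Spc25) binds microtubules and the MIS12 complex anchors it. Spc24 had 81 control reads and 132 AAOT reads, or 4.36 CPM and 7.89 CPM, a ratio of 1.81 (1.36 to 2.42). Its partner Spc25, with which it forms the stalk of the complex, had 95 reads and 39 reads, or 5.12 CPM and 2.33 CPM, and was 2.20-fold lower (1.497 to 3.27). The reads of these partners thus differed in opposite directions between the pools, as a description of genes named for the size of their difference among 35. Overlaps with neighbouring genes and unique stretches were examined for the members only and not for these genes. Mis12 had 278 reads and 171 reads and was 1.47-fold lower (1.21 to 1.78). Ndc80 and Nuf2, chosen for the complex and not by the naming rule, had 3 and 4 control reads and 4 and 1 AAOT reads, so the levels of the complex's 4 transcripts were not alike in either pool. The intervals cover counting error only.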
